A study of Mus musculus with 12 samples.

Results

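Fibroblast growth factor (FGF) genes were followed through a dose series of the kinase inhibitor CHIR99021 in organoids of the mouse mammary gland. The 10 genes were the ligands Fgf1, Fgf2, Fgf7, Fgf10 and Fgf18, the receptors Fgfr1, Fgfr2, Fgfr3 and Fgfr4, and the FGF-binding protein gene Fgfbp1. They were taken by gene symbol from a count table of 25210 genes, and each symbol matched 1 row. Organoids came from mammary glands of virgin FVB/N female mice aged 8 to 11 weeks, were embedded in Matrigel depleted of growth factors and were fed a minimal medium. For 7 days they received the vehicle dimethyl sulfoxide (DMSO) or CHIR99021 at 1, 1.5 or 3 µM. CHIR99021 inhibits glycogen synthase kinase 3 and was used to switch on WNT signalling through beta-catenin. The labels name the FVB/N strain and no engineered allele for any group, and each of 3 cultures, from 3 animals, received all 4 treatments, giving 12 libraries of bulk polyadenylated RNA with 10129264 to 24485855 counts each.

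FGF ligands are secreted proteins that bind receptor tyrosine kinases at the cell surface together with heparan sulfate. Bound receptors dimerise and signal through adaptor proteins, RAS and the MAP kinases, and the pathway turns on its own inhibitors. In the mammary gland, Fgf10 and Fgf7 are known as stromal ligands of the epithelial splice form of Fgfr2, a receptor needed for formation and branching of the ducts. FGF2 protein is widely used to make mammary organoids branch in Matrigel. Fgfbp1 encodes a secreted carrier that releases FGFs from the extracellular matrix. The counts are per gene and do not separate receptor splice forms.

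Promoters are shown for the members that rose with dose, Fgfbp1 and Fgfr3, and for 2 members that fell, Fgf2 and Fgfr4. They are RefSeq sequences on GRCm38.p6, from 250 bases before the listed transcription start to 30 bases after it. Listed starts need not match the gene ends in the count table. The whole Fgfbp1 window lies upstream of 43981762, where that table ends the gene. The Fgf2 window lies inside the span of 37312519 to 37405377 given there, and the Fgfr4 window reaches past the start given there, 55152640. Sequences were matched for 8 of the 10 members and not for Fgf1 and Fgfr1; for Fgfr3 the more upstream of its listed starts is shown. A set of 6 short motifs were searched on both strands, and capitals mark every match.
Fgfbp1 promoter, chr5:43981770-43982049, minus strand: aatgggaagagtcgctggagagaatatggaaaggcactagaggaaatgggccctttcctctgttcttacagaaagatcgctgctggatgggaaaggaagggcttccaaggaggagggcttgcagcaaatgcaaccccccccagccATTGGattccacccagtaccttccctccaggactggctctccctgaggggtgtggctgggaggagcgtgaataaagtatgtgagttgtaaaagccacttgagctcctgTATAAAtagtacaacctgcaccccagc
Fgfr3 promoter, chr5:33721474-33721753, plus strand: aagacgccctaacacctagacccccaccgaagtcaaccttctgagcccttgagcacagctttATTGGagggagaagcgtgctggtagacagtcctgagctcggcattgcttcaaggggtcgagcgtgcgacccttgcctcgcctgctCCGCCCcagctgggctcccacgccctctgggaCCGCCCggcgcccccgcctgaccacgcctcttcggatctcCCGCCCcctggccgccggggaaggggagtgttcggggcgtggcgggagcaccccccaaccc
Fgf2 promoter, chr3:37348403-37348682, plus strand: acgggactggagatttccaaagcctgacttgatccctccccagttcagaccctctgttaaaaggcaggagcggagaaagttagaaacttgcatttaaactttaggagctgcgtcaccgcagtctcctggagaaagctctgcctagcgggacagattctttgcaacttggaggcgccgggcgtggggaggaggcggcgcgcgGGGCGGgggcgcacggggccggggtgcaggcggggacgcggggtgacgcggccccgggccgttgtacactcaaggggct
Fgfr4 promoter, chr13:55152568-55152847, plus strand: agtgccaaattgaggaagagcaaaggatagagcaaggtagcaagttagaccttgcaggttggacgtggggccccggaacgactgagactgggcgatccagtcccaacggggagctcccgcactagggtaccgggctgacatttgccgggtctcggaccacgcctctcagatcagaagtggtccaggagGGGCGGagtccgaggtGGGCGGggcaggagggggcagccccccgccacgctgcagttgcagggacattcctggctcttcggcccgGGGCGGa
The motifs were the TCF/LEF sites CTTTGAA and CTTTGAT, bound by the partners of beta-catenin, the AP-1 site TGANTCA, the TATA box TATAAA, the GC box GGGCGG and CCAAT. None of the 9 promoter windows of the 8 matched members held either TCF/LEF motif or the AP-1 motif, which occurred in 4.86%, 3.56% and 7.46% of all 32851 promoter windows of the same length. TATAAA was found in the Fgfbp1 window, starting 3 bases after the listed start, and in no other member's, against 13.1% of all windows. Like the rest of that window, the match lies upstream of the gene's end in the count table. GC boxes were absent from the windows of Fgfbp1, Fgf7 and Fgfr2 and present in those of the other matched members, against 34.7% of all windows. CCAAT, read on either strand, lay in the windows of Fgfbp1, Fgfr3 and Fgf7, against 36.1% of all windows. The Fgfbp1 window had 52.9% G and C, that of Fgfr3 68.2%, Fgf2 63.2% and Fgfr4 64.6%, with a median of 52.5% over all windows. These are letter matches within a short window and not measured binding sites.

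Levels are in CPM, the counts of a gene per 1e6 counts of its library, where library sizes carry edgeR's TMM scaling factors. A mean level comes with its SD (n = 3 libraries). Levels of different genes are compared only as RPKM, which is CPM per kilobase of exon. Calls of change rest on the quasi-likelihood test of edgeR and a Benjamini-Hochberg adjusted p under 0.05 over the 15316 genes that passed edgeR's filter on low counts. Of the 10 members, 9 passed the filter and Fgf18 did not. Fgf1 and Fgf2 passed through DMSO and the 2 lower doses, since none of their 3 µM libraries reached the 0.573 CPM the filter asks for. Fgfr4 reached it in 2 DMSO and 2 1 µM libraries only. Counts of called members are therefore a description, since genes that pass only through the group where they are high had to differ.

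**Figure D1:**
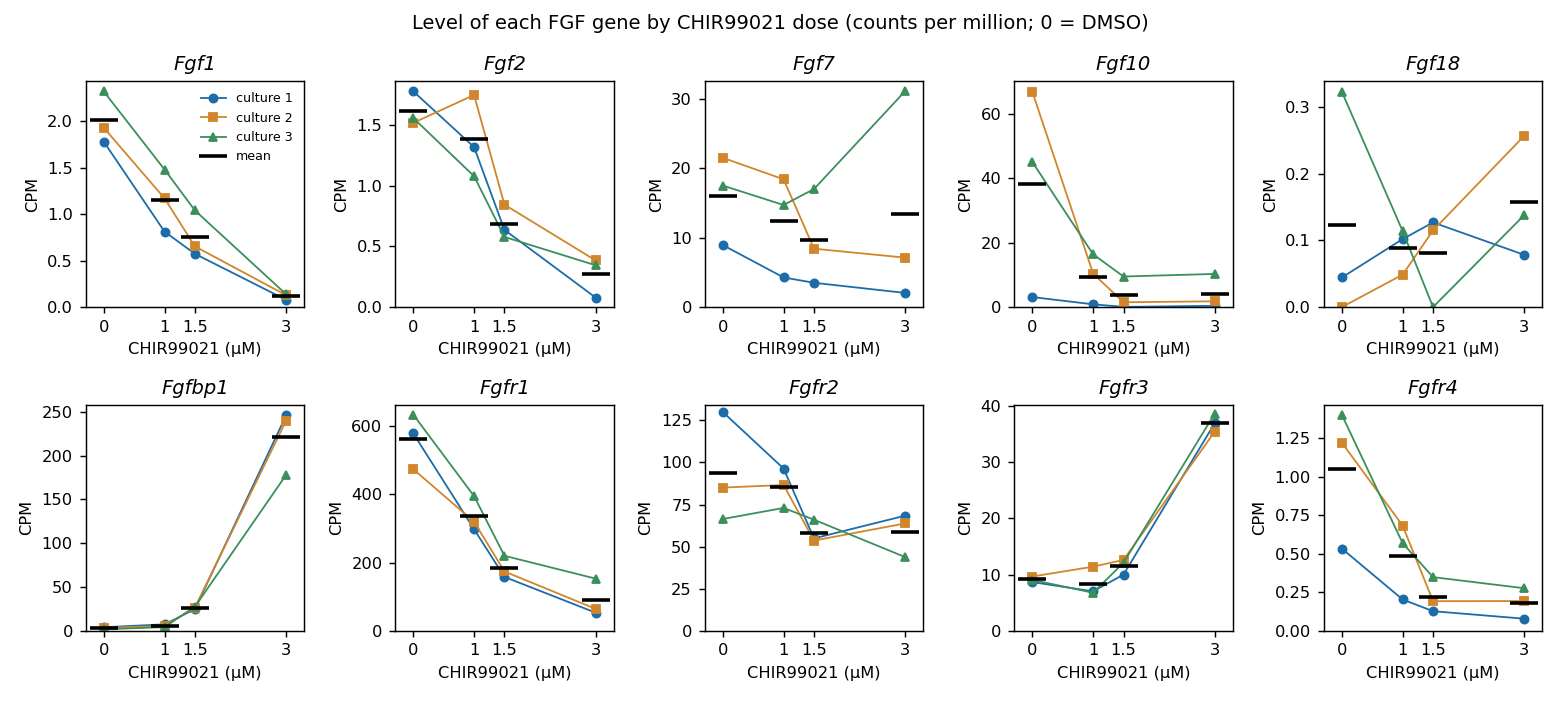
Level of each of the 10 FGF genes in CPM (vertical axis, linear from 0) against CHIR99021 dose in µM (0 is DMSO). Each colour and symbol is 1 culture and the black bar is the mean of 3 libraries. Fgfbp1 and Fgfr3 are highest at 3 µM in all 3 cultures, Fgf1, Fgf10, Fgfr1 and Fgfr4 are highest in DMSO in all 3 cultures, and Fgf7 runs in different directions in culture 3 and the others.

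Fgfbp1 rose with every dose, and its increase at 3 µM was larger than the change of any other tested member. The gene lies on chromosome 5 at 43978865 to 43981762. DMSO libraries of cultures 1, 2 and 3 had 4.04, 3.45 and 1.72 CPM. At 1 µM they had 7.36, 5.46 and 4.2 CPM, and at 1.5 µM 24.7, 26.6 and 27.5 CPM. At 3 µM the values were 246, 240 and 178 CPM. No library overlapped between any pair of neighbouring doses, and the value rose at every step in every culture. Against DMSO the log2 fold change was 0.89 ± 0.296 (SE) at 1 µM, which was not called (edgeR adjusted p = 0.277), 3.1 ± 0.299 at 1.5 µM (0.000211) and 6.17 ± 0.333 at 3 µM (1.52e-06). The mean rose from 3.07 ± 1.21 to 221 ± 37.7 CPM, a fitted 72.1-fold difference. Steps from 1 to 1.5 µM (log2 fold change 2.21 ± 0.281, edgeR adjusted p = 0.00619) and from 1.5 to 3 µM (3.07 ± 0.28, adjusted p = 0.000151) were each called. The step from 1 to 1.5 µM was not called without culture 1 (edgeR adjusted p = 0.0992) or without culture 2 (0.301).

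Summed markers of squamous differentiation, proliferation and basal cells were higher at 3 µM than in DMSO in every culture, as was Fgfbp1. The proliferation sum did not rise at every step. In culture 1 it went from 244 CPM in DMSO to 228 CPM at 1 µM. In culture 3 it went from 678 CPM at 1.5 µM to 599 CPM at 3 µM. Calls in these lists are at 3 µM against DMSO, where 29.9% of all tested genes were called higher and 27.7% lower. The summed level of 10 squamous genes was 11.6 to 36.8 CPM in DMSO and 2670 to 19500 CPM at 3 µM, and 10 of 10 were called higher. Proliferation genes, 7 of 7 higher, summed to 201 to 244 CPM in DMSO and 599 to 1540 CPM at 3 µM. Of 8 basal genes, the keratins Krt5, Krt14 and Krt17 and the transcription factor gene Trp63 were called higher and the contractile or myoepithelial genes Acta2, Myh11, Cnn1 and Oxtr lower, with sums of 2060 to 3420 CPM in DMSO and 16200 to 34000 CPM at 3 µM. Culture 3 had the lowest sum of the 3 cultures at 3 µM for all 3 lists, and it also had the lowest Fgfbp1 level there. At 1.5 µM culture 3 had the highest Fgfbp1 level, at 27.5 CPM, and the highest basal sum, at 6090 CPM. Its squamous and proliferation sums, 1350 and 678 CPM, were the lowest at that dose. The part of these cell states in the Fgfbp1 result was not tested. In bulk RNA, fewer cells of a type and less RNA per cell cannot be told apart, here and for every gene below.

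Receptor transcripts fell in sum and changed in make-up. Fgfr1, the main receptor transcript in DMSO, fell at 1.5 and 3 µM, Fgfr3 rose at 3 µM, Fgfr2 was lower at 3 µM by a smaller amount, and Fgfr4 was low throughout and fell.

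Fgfr1 (chromosome 8, 25513654 to 25575714) encodes the receptor best known from mesenchymal cells and also made in mammary epithelium. Its DMSO libraries of cultures 1 to 3 had 579, 474 and 634 CPM. At 1 µM they had 298, 320 and 395 CPM, at 1.5 µM 158, 174 and 220 CPM, and at 3 µM 53.1, 64.3 and 153 CPM. The level fell at every step in every culture, no libraries overlapped between neighbouring doses, and culture 3 was the highest at each dose. The log2 fold change against DMSO was -0.74 ± 0.34 at 1 µM (edgeR adjusted p = 0.441), -1.61 ± 0.347 at 1.5 µM (0.00776) and -2.64 ± 0.36 at 3 µM (0.000182), a 6.24-fold lower level. The slope was -0.9 ± 0.114 log2 units per µM (edgeR adjusted p = 5.29e-05). The step from 1.5 to 3 µM (-1.03 ± 0.343, adjusted p = 0.0464) was not called in 11 of the 12 fits that left out 1 library, with edgeR adjusted p from 0.0558 to 0.155 in those 11; it was called without the culture 3 library of 3 µM. Leaving out culture 1 (edgeR adjusted p = 0.21) or culture 2 (0.332) also lost it, as did omitting the filter (0.0561) or fitting only the 2 groups (0.13). The call at 1.5 µM was lost without culture 1 (edgeR adjusted p = 0.065) and without culture 2 (0.125).

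Fgfr3 (chromosome 5, 33721724 to 33737068), a receptor known for its role in cartilage and in stratified epithelium, had 8.66, 9.65 and 9.05 CPM in DMSO. At 1 µM the values were 7.01, 11.4 and 6.76 CPM and at 1.5 µM 9.99, 12.6 and 12.1 CPM. At 3 µM all 3 cultures lay between 35.4 and 38.6 CPM. The increase thus fell mostly between 1.5 and 3 µM, with all 3 µM libraries above all others. The log2 fold change against DMSO was -0.12 ± 0.191 at 1 µM, 0.34 ± 0.191 at 1.5 µM and 2.02 ± 0.196 at 3 µM, with edgeR adjusted p of 0.873, 0.205 and 2.14e-05. Against 1.5 µM the 3 µM level was 3.2-fold higher (edgeR adjusted p = 0.000404). Within cultures 1, 2 and 3, the 3 µM level was 4.25, 3.67 and 4.27 times the DMSO level. An antisense gene, G630022F23Rik, shares 998 exonic bases with Fgfr3 in GENCODE M21.

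Fgfr2 (chromosome 7, 130162451 to 133123350), whose epithelial splice form binds Fgf7 and Fgf10, had 130, 85.1 and 66.4 CPM in DMSO. The values were 96.4, 86.6 and 73 CPM at 1 µM, 54.9, 53.6 and 66 CPM at 1.5 µM, and 68.4, 63.8 and 43.8 CPM at 3 µM. The DMSO libraries overlapped with those of 3 µM, and within each culture the 3 µM level was below DMSO, by 1.9-, 1.33- and 1.52-fold. The log2 fold change was -0.69 ± 0.243 at 1.5 µM (edgeR adjusted p = 0.0591, and 0.0288 with the replicate block) and -0.68 ± 0.244 at 3 µM (edgeR adjusted p = 0.0354). Between 1.5 and 3 µM it was 0.01 ± 0.243 (edgeR adjusted p = 0.975). The call at 3 µM was lost without the DMSO library of culture 1 (log2 fold change -0.37, edgeR adjusted p = 0.154), without the 3 µM library of culture 2 (0.0569) or culture 3 (0.0983), and without all libraries of culture 1 (0.13) or culture 2 (0.155). At 1.5 µM leaving out the DMSO library (edgeR adjusted p = 0.0203) or the 3 µM library (0.0374) of culture 3, or all of culture 3 (0.0149), gave a call, as did DESeq2 with all libraries (adjusted p = 0.0232). Its slope of -0.24 ± 0.0839 log2 units per µM (edgeR adjusted p = 0.0262) was not called without the DMSO library of culture 1 (0.0997) or the 3 µM library of culture 3 (0.0756), nor without culture 1 (0.0813), 2 (0.0831) or 3 (0.056). The annotated span of Fgfr2 overlaps other genes, among them Ate1, Tacc2 and Ctbp2, while its RefSeq promoter window lies at 130266779 to 130267058. Its RPKM uses the 10328 exonic bases of that full annotation. Fgfr2 shares 314 exonic bases on the same strand with Ctbp2 in GENCODE M21, and Ctbp2 had 61.4 ± 4.91 CPM in DMSO and 80.9 ± 7.91 CPM at 3 µM.

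Fgfr4, a receptor known mainly from liver, had 12, 12 and 26 counts in DMSO and 1, 3 and 4 counts at 3 µM, or 0.533, 1.22 and 1.4 CPM against 0.0784, 0.193 and 0.276 CPM. All 3 µM libraries lay below all DMSO libraries. The log2 fold change was -2.19 ± 0.6 at 1.5 µM (edgeR adjusted p = 0.0221) and -2.44 ± 0.636 at 3 µM (0.00781). Pooled over libraries, DMSO was 5.26 times 3 µM, with a 95% exact interval of 2.47 to 12.8 that covers counting error only. The 1.5 µM call was lost without the DMSO library of culture 2 (edgeR adjusted p = 0.0641) or 3 (0.0727) and without the 1.5 µM library of culture 1 (0.0803) or 2 (0.0795), and without all libraries of culture 2 (0.273) or 3 (0.0763). The 3 µM call was lost without culture 2 (edgeR adjusted p = 0.111).

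**Figure D2:**
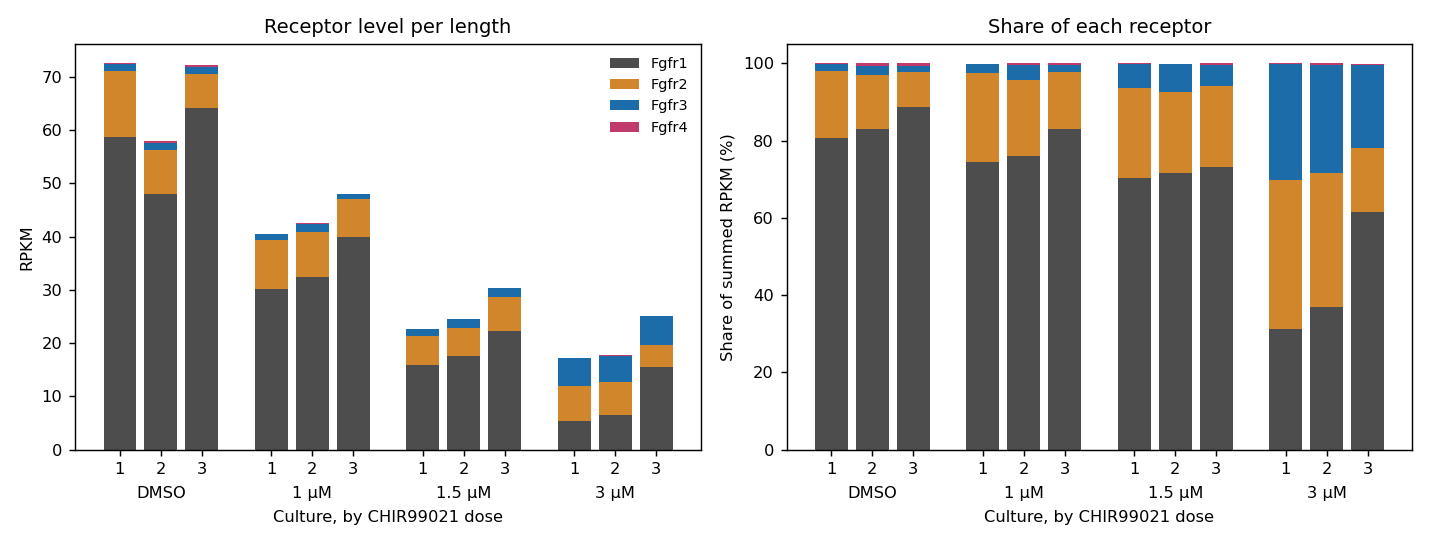
Receptor transcripts in each library, by culture and dose. The left panel stacks RPKM and the right panel stacks each receptor's share of the summed RPKM in percent; Fgfr1 takes 80.8% to 88.8% in DMSO and 31.3%, 36.8% and 61.4% in cultures 1, 2 and 3 at 3 µM.

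Per exonic length, the 4 receptors summed to 67.6 ± 8.34 RPKM in DMSO. With CHIR99021 the sum was 43.7 ± 3.94 RPKM (1 µM), 25.9 ± 4.02 RPKM (1.5 µM) and 20 ± 4.49 RPKM (3 µM). Fgfr1 made up 84.2% ± 4.15 (SD, n = 3) of that sum in DMSO and 43.2% ± 16 at 3 µM. Fgfr2 made up 13.5% ± 4.26 and 30.1% ± 11.6, Fgfr3 1.91% ± 0.358 and 26.5% ± 4.47, and Fgfr4 0.449% ± 0.211 and 0.249% ± 0.104. Fgfr1 exceeded Fgfr3 by 48.4, 35.6 and 50.8 times in the DMSO libraries of cultures 1, 2 and 3 and by 1.04, 1.32 and 2.86 times at 3 µM. In cultures 1 and 2 the 3 larger receptors were near each other at 3 µM, while in culture 3 Fgfr1 still led, with 3.64 times the level of Fgfr2. The log2 ratio of Fgfr1 to Fgfr3 was 5.47 ± 0.277 in DMSO and 0.66 ± 0.763 at 3 µM, that of Fgfr1 to Fgfr2 2.69 ± 0.564 and 0.55 ± 1.16, and that of Fgfr2 to Fgfr3 2.78 ± 0.534 and 0.11 ± 0.398. In each of these 3 ratios the groups did not overlap, with p = 0.1 in a two-sided exact permutation test, the smallest that 3 against 3 libraries allow, and 0.15 after Benjamini-Hochberg adjustment over 9 such tests.

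Of the ligands, Fgf1 and Fgf2 were low and fell, Fgf10 was lower in every culture but was not called at any dose in the unpaired fit of all libraries, Fgf7 showed no called change, and Fgf18 was near 0.

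Fgf1 (chromosome 18, 38838673 to 38929404), a ligand that binds all FGF receptors, had 1.78, 1.93 and 2.32 CPM in DMSO. Its 1 µM libraries had 0.812, 1.17 and 1.48 CPM and its 1.5 µM libraries 0.573, 0.653 and 1.04 CPM. At 3 µM the libraries held 1, 2 and 2 counts, or 0.0784 to 0.138 CPM. The level fell at every step in every culture. Fitted log2 fold changes were -0.8 ± 0.324 at 1 µM (edgeR adjusted p = 0.369), -1.4 ± 0.332 at 1.5 µM (0.0119) and -4.03 ± 0.418 at 3 µM (3.21e-05). Pooled counts were 102 in DMSO and 5 at 3 µM, a ratio of 17.2 after scaling (95% exact interval 7.12 to 54, counting error only). The 1.5 µM call was lost without the 1.5 µM library of culture 1 (edgeR adjusted p = 0.051) or culture 2 (0.05 after rounding), without culture 1 (0.0814) and without culture 2 (0.212). From 1.5 to 3 µM Fgf1 fell by 2.63 on the log2 scale (edgeR adjusted p = 0.00196, and 0.0792 without culture 2).

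Fgf2 (chromosome 3, 37312519 to 37405377) had 1.78, 1.52 and 1.56 CPM in DMSO and 1.32, 1.75 and 1.08 CPM at 1 µM. At 1.5 µM it had 0.637, 0.845 and 0.579 CPM, and at 3 µM 0.0784, 0.385 and 0.345 CPM from 1, 6 and 5 counts. DMSO and 1 µM overlapped, and each higher dose lay below the doses before it. Fitted log2 fold changes were -0.23 ± 0.382 at 1 µM (edgeR adjusted p = 0.88), -1.22 ± 0.396 at 1.5 µM (0.0436) and -2.53 ± 0.444 at 3 µM (0.000816). The 1.5 µM call was lost in the 9 fits that left out 1 library of DMSO, 1 µM or 1.5 µM, with edgeR adjusted p from 0.0526 to 0.123, and in those without a culture (0.131 to 0.213). With all libraries kept it was lost with scaling by library size alone (edgeR adjusted p = 0.053) and without the filter (0.084). Nudt6, an antisense gene that shares 640 exonic bases with Fgf2, had 3.34 ± 0.349 CPM in DMSO and 2.9 ± 0.766 CPM at 3 µM.

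Fgf10 (chromosome 13, 118669791 to 118792115) differed between cultures as much as between doses. DMSO libraries of cultures 1, 2 and 3 had 3.11, 66.9 and 45.1 CPM. At 1 µM they had 0.863, 10.4 and 16.4 CPM, at 1.5 µM 0.0637, 1.5 and 9.5 CPM, and at 3 µM 0.392, 1.8 and 10.3 CPM. The groups overlapped because culture 1 was the lowest at every dose, yet in all 3 cultures each dose lay below DMSO. At 3 µM the level was 7.93, 37.2 and 4.38 times lower than DMSO in cultures 1, 2 and 3. Without pairing, the log2 fold change at 3 µM was -3.19 ± 1.6 (edgeR adjusted p = 0.11). With the replicate block it was -3.58 and was called (edgeR adjusted p = 0.0011), as were 1.5 µM (-3.88, adjusted p = 0.00155) and the slope (-1.22 per µM, adjusted p = 0.00358). The 3 µM values lay a little above those at 1.5 µM in each culture, which was not called (log2 fold change 0.18 ± 1.53, edgeR adjusted p = 0.941). Without culture 1, the unpaired test at 3 µM also made the call (edgeR adjusted p = 0.0463). The unpaired slope (edgeR adjusted p = 0.059) was called without the DMSO library (0.0418) or the 1.5 µM library (0.0471) of culture 1 and without the 3 µM library of culture 3 (0.0125), and without all of culture 1 (0.0278) or culture 3 (0.0307).

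Fgf7 (chromosome 2, 126034658 to 126091185), also called keratinocyte growth factor, had 8.93, 21.5 and 17.5 CPM in DMSO and 4.27, 18.4 and 14.7 CPM at 1 µM. At 1.5 µM it had 3.5, 8.41 and 17 CPM, and at 3 µM 2.04, 7.12 and 31.1 CPM. Cultures 1 and 2 were 4.38- and 3.02-fold lower at 3 µM than in DMSO, while culture 3 was 1.78-fold higher. At 3 µM the fitted log2 fold change was -0.24 ± 0.895 (edgeR adjusted p = 0.828, and 0.225 with the replicate block). Whether the culture 3 response differed from the others was not tested.

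Fgf18 had 0 to 6 counts per library and 24 counts in all 12, 7 in DMSO and 7 at 3 µM. It was not tested, and no dose difference was detectable at this depth, since the ratio of 3 µM to DMSO was 1.19 with a 95% exact interval of 0.356 to 3.97.

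**Figure D3:**
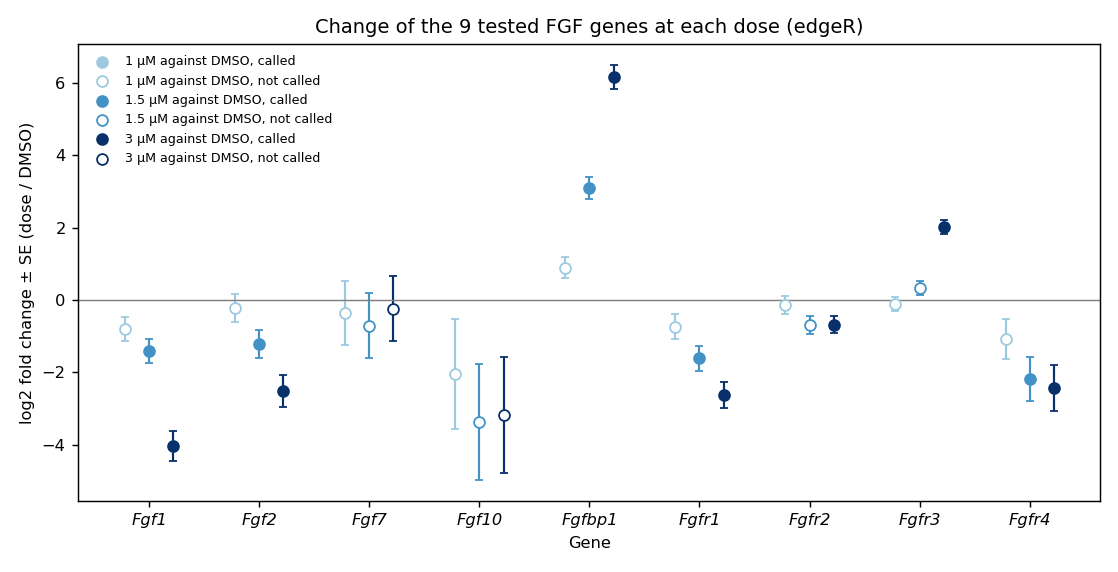
Log2 fold change against DMSO (vertical axis, bars are SE) of the 9 tested FGF genes at 1, 1.5 and 3 µM CHIR99021. Filled points have an edgeR adjusted p under 0.05; none is filled at 1 µM, 5 are at 1.5 µM and 7 at 3 µM.

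Read by dose, 0 of the 9 tested members were called at 1 µM in edgeR, where 0.242% of all tested genes were (0.189% higher and 0.0522% lower). At an unadjusted p under 0.05, Fgf1 and Fgfbp1 passed there, as did 1798 of all 15316 tested genes. DESeq2 gave an adjusted p at 1 µM for 6 members, not for Fgf1, Fgf2 and Fgfr4. It called 0 of these 6, against 485 of 13818 genes. The replicate block called 0 of the 9 members, against 859 of 15316 genes. At 1.5 µM, 5 members were called, Fgfbp1 higher and Fgf1, Fgf2, Fgfr1 and Fgfr4 lower, against 27.3% of all tested genes (15.4% higher and 11.8% lower). That count was 7 with the replicate block, and it fell to 2 without the 1.5 µM library of culture 1 or of culture 2, to 3 without the DMSO library of culture 2, to 2 without culture 1 and to 1 without culture 2. Calls over all 15316 tested genes moved too, from 4177 to 7147 with the block. They numbered 2590 without the 1.5 µM library of culture 1 and 2565 without the DMSO library of culture 2. Without culture 1 they numbered 1533, and without culture 2 461. At 3 µM, 7 members were called, 2 higher and 5 lower, against 57.5% of all tested genes (29.9% higher and 27.7% lower), and the replicate block added Fgf10. Calls over all tested genes rose there from 8814 to 10559 with the block. Between 1 and 1.5 µM, 1 member was called (Fgfbp1), against 5.43% of all tested genes (4.43% higher and 0.992% lower). The replicate block called Fgfr1 (edgeR adjusted p = 0.0259) and Fgfr4 (0.0466) there as well; Fgfr1 was called without the 3 µM library of culture 3 (0.0114), without culture 3 (0.0154) and with only the 2 groups fitted (0.0324), and Fgfr3 without the 1 µM library of culture 2 (0.0467). Over all tested genes, the block raised the calls for this step from 831 to 3351. Between 1.5 and 3 µM, 4 members were called, Fgfbp1 and Fgfr3 higher and Fgf1 and Fgfr1 lower, against 29.7% of all tested genes (17.0% higher and 12.7% lower), and the block added Fgf2 (edgeR adjusted p = 0.0326), as did scaling by library size alone (0.0241). Without culture 2 that count was 2. Over all tested genes, calls for this step numbered 4544, with 7149 under the block and 354 without culture 2. The slope over dose was called for 7 members, 2 rising and 5 falling, against 58.2% of all tested genes (30.2% rising and 28.0% falling). The comparisons with DMSO share their control libraries.

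Among the members, Fgf7, Fgf10 and Fgfr4 differed between the 3 cultures at the same dose, with edgeR adjusted p of 0.0179, 0.00271 and 0.0162, against 28.8% of all tested genes. For all 3 genes culture 1 was the lowest at every dose. Without culture 1 none of the 3 was called (edgeR adjusted p of 0.419, 0.267 and 0.748). Calls over all tested genes numbered 1112 in that fit, from 4418 with all libraries. The Fgf7 call was also lost without the 1 µM (0.0628) or 1.5 µM (0.0521) library of culture 1, and the Fgfr4 call without the DMSO (0.0773) or 1 µM (0.076) library of culture 1 and without culture 3 (0.0654). Leaving out the DMSO library of culture 1 (edgeR adjusted p = 0.0447) or the 3 µM library of culture 3 (0.0324) gave a call for Fgfr1, and leaving out the 1.5 µM library of culture 3 gave calls for Fgfr2 (0.0195) and Fgfbp1 (0.0272). With all libraries kept, DESeq2 did not call Fgfr4 (adjusted p = 0.0806) and called Fgfr1 (0.0113).

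Markers of cells other than epithelium were present in the organoids and moved with dose and culture. The 10 fibroblast genes summed to 1640, 7410 and 20600 CPM in the DMSO libraries of cultures 1, 2 and 3 and to 181, 987 and 4590 CPM at 3 µM. Culture 1 was thus the lowest at both doses, as it was for Fgf10, Fgf7 and Fgfr4. The fall in this sum at 3 µM was 9.09-, 7.51- and 4.48-fold in cultures 1, 2 and 3, beside 10.9-, 7.38- and 4.15-fold for Fgfr1. The 2 did not run alike at 1 µM, where the sum was 1700, 6640 and 19600 CPM. Fgfr1 had 298, 320 and 395 CPM there, from 579, 474 and 634 CPM in DMSO. At 3 µM, 2 of the 10 fibroblast genes were called lower (Dpt and Fap, which are named after their values were seen), and 9 of 10 with the replicate block. For these and the next lists, 27.7% of all tested genes were called lower at 3 µM. With the replicate block, 5335 of all 15316 tested genes were. Adipocyte genes, 5 of 5 lower, summed to 3380 to 8990 CPM in DMSO and 36.2 to 237 CPM at 3 µM. Leukocyte genes, 4 of 5 tested lower, summed to 251 to 2520 CPM and 39.8 to 119 CPM, and endothelial genes, 5 of 6 lower, to 244 to 507 CPM and 28 to 90.3 CPM. Of the 9 luminal epithelial genes 6 were called lower, with sums of 2880 to 4710 CPM in DMSO and 2200 to 2440 CPM at 3 µM. The part of these cells in the results for Fgf1, Fgf2, Fgf7, Fgf10, Fgfr1, Fgfr2 and Fgfr4 was not tested.

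**Figure D4:**
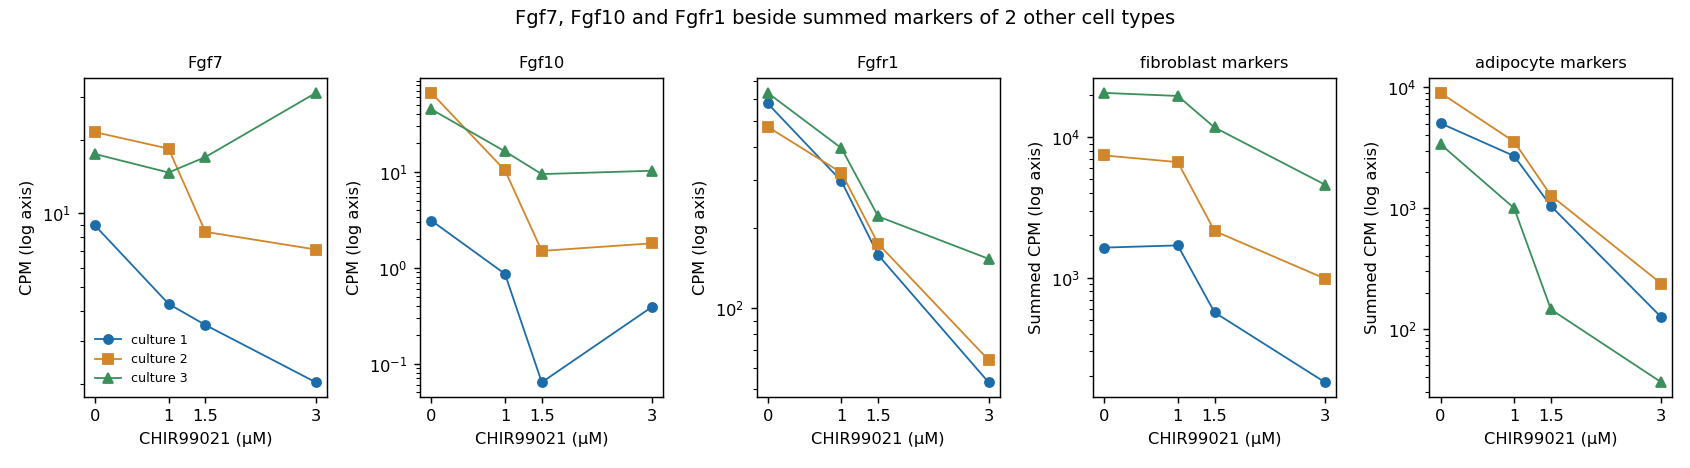
Fgf7, Fgf10 and Fgfr1 in CPM and the summed CPM of 10 fibroblast and 5 adipocyte marker genes, all on log axes, against CHIR99021 dose in µM. Each line is 1 culture; culture 1 is the lowest for Fgf7, Fgf10 and the fibroblast sum at every dose, and the adipocyte sum is lowest in culture 3.

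Compared per length, the order of the members changed between DMSO and 3 µM. In DMSO, Fgfr1 led with 56.9 ± 8.19 RPKM, above every library of the next gene. It was followed by Fgfr2 (9.08 ± 3.15 RPKM), Fgf10 (8.34 ± 7.05) and Fgf7 (4.92 ± 1.98), whose libraries overlapped from each gene to the next. Fgfbp1 (1.36 ± 0.533 RPKM) and Fgfr3 (1.27 ± 0.0692) came next, below every Fgf7 library, and overlapped each other. Fgf1, Fgfr4, Fgf2 and Fgf18 lay between 0.103 and 0.367 RPKM on average. At 1.5 µM Fgfr1 (18.6 ± 3.26 RPKM) was still first and Fgfbp1 (11.6 ± 0.635) was second, each apart from the next gene. At 3 µM Fgfbp1 led with 97.8 ± 16.6 RPKM and stood apart from the rest. Fgfr1 (9.12 ± 5.53 RPKM), Fgfr2 (5.68 ± 1.26), Fgfr3 (5.17 ± 0.226), Fgf7 (4.13 ± 4.78) and Fgf10 (0.904 ± 1.16) followed, and no neighbours among these differed beyond the spread of their libraries. Fgf18, Fgfr4, Fgf2 and Fgf1 were the lowest, at 0.021 to 0.133 RPKM.

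Other genes of the pathway were read from 5 lists at 3 µM against DMSO, where 29.9% of all tested genes were called higher and 27.7% lower. With scaling by library size alone, 38.6% of all calls were higher, against 51.9% with TMM scaling. The replicate block called 5224 of the 15316 tested genes higher and 5335 lower. Without culture 2, 4794 of them were called in all. Of 17 other ligands, 15 had a row in the table and 4 were tested. Fgf5 and Fgf13 were called lower, 2 of those 4, and are named after their values were seen. Fgf5 reached the filter level in no library at 1.5 or 3 µM, so it could pass only through DMSO and 1 µM, and its call is a description. Of 4 tested in each fit, 1 was called lower without culture 1, 0 without culture 2 and 4 without culture 3, and 6 of the list were called without the filter. Fgf11, an intracellular member of the family, had 6.43 CPM in DMSO and 5.71 CPM at 3 µM and was not called with all libraries (edgeR adjusted p = 0.861).

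Of 6 tested co-receptors and binding proteins, 2 were called higher and 3 lower, 3 in all without culture 2. Fgfrl1, a receptor-like protein without a kinase domain, fell steadily: its DMSO libraries had 120, 167 and 102 CPM, the 1.5 µM libraries 39.5, 42.5 and 35.5 CPM and the 3 µM libraries 14.9, 18 and 19.9 CPM. The fold was 7.34 (log2 fold change -2.88 ± 0.226, edgeR adjusted p = 6.9e-06), with no overlap between these doses. Klb, the co-receptor beta-Klotho for endocrine FGFs and known from fat and liver, went from 29.1, 62.8 and 25.9 CPM to 0.235, 0.77 and 0.069 CPM (log2 fold change -6.71 ± 1.04, edgeR adjusted p = 0.000402); the adipocyte sums given above moved with it. Flrt3, a transmembrane protein that binds FGF receptors, rose from 10.7, 13.8 and 21.8 CPM to 68.7, 62.2 and 81 CPM (2.2 ± 0.3, edgeR adjusted p = 0.000183). Its relative Flrt2 had 20.2 CPM in DMSO and 38.1 CPM at 3 µM and was not called (edgeR adjusted p = 0.322, and 0.0295 with the replicate block).

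Genes for heparan sulfate proteins and enzymes were tested for all 19 listed, of which 2 were called higher and 10 lower at 3 µM, or 1 and 12 with scaling by library size. Without culture 2, 5 were called in all. Their median log2 fold change was -0.59. Sdc1, the core protein syndecan 1 of epithelial cells, rose from 235, 179 and 213 CPM to 814, 781 and 1460 CPM, without overlap (log2 fold change 2.28 ± 0.222, edgeR adjusted p = 2.19e-05). Sulf2, an enzyme that removes sulfate groups from heparan sulfate outside the cell, fell from 432, 373 and 404 CPM to 110, 125 and 171 CPM (-1.58 ± 0.166, edgeR adjusted p = 3.54e-05). The glypican Gpc4 fell 1.65-fold and the sulfotransferase Hs6st1 1.72-fold, with edgeR adjusted p of 0.000238 and 0.000425.

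Among 18 adaptor and MAP kinase cascade genes, 7 were called higher and 4 lower, or 5 and 6 with scaling by library size. Without culture 2, 5 were called in all. Hras and Nras, which encode small GTPases of the cascade, were 2.4- and 1.62-fold higher, with edgeR adjusted p of 0.000317 and 6.25e-05. The median log2 fold change of this list was 0.06.

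The 17 feedback and target genes did not move together. At 3 µM, 5 were called higher and 1 lower, with a median log2 fold change of 0.13; the count was 10 with the replicate block (6 higher and 4 lower), and 4 higher and 3 lower with scaling by library size. Spry4, a Sprouty inhibitor induced by FGF signalling, fell from 30.4, 82.7 and 47.7 CPM to 3.61, 5.84 and 11.7 CPM (log2 fold change -2.92 ± 0.501, edgeR adjusted p = 0.000748). Etv4, an ETS transcription factor gene of the same feedback group, rose from 6.13, 9.34 and 5.22 CPM to 22.4, 30.5 and 49.2 CPM (2.31 ± 0.447, edgeR adjusted p = 0.00152). Fosl1, a gene for an AP-1 subunit, rose 5.15-fold, and Il17rd, the FGF inhibitor also called Sef, rose 2.54-fold (edgeR adjusted p of 0.00134 and 0.00108).

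**Figure D5:**
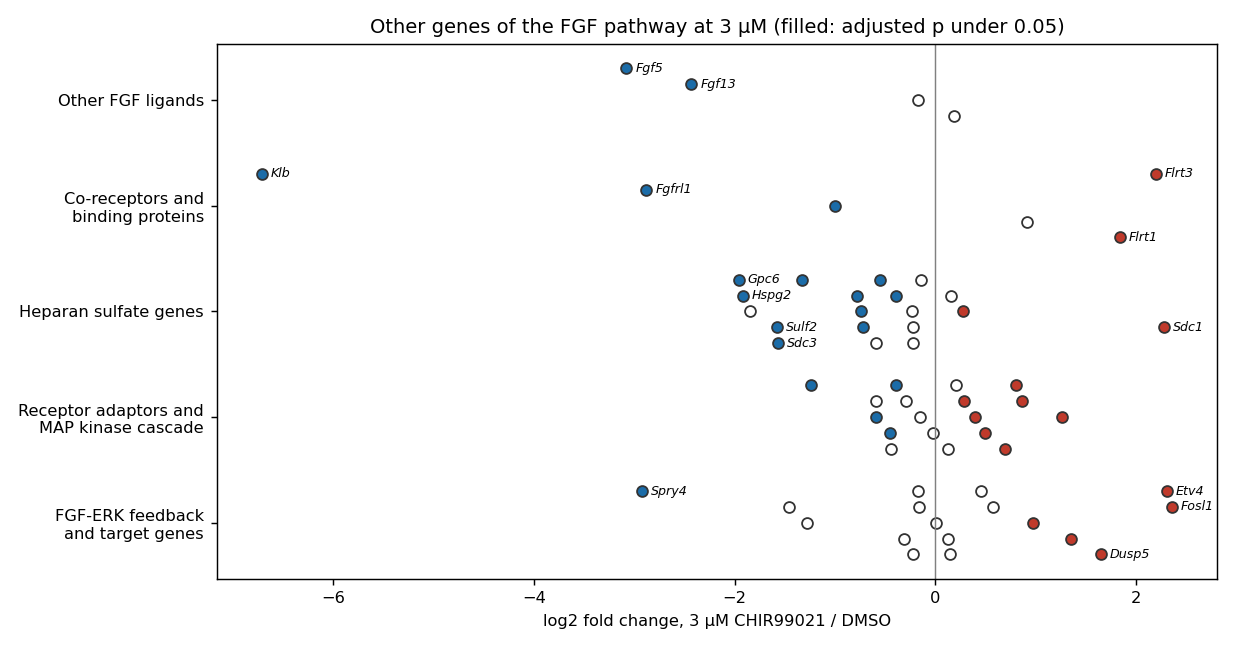
Log2 fold change at 3 µM CHIR99021 against DMSO (horizontal axis) of the tested genes in 5 lists of FGF pathway genes; vertical position within a list only separates points. Filled points have an edgeR adjusted p under 0.05 (red higher, blue lower), and called genes with the larger changes are named; each list of more than 4 tested genes holds called genes on both sides of 0.

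The genes most like each member in log2 CPM over the 12 libraries were found among 12438 genes with at least 50 counts on average. The libraries share dose groups and animals, so the Pearson r that follows is a description. Fgfbp1 was most like Ipo5 (r = 0.994), Eif3g (0.993) and Tcp1 (0.992), and 1748 genes had an r over 0.9 with it. For Fgfr1 they were Sdk2 (0.99), Thsd4 (0.988) and Wisp2 (0.985), with 741 genes over 0.9, and for Fgfr3 Taf13 (0.986), Bicd2 (0.985) and Dapk2 (0.984), with 669. Fgfr2 had few like it: Osgepl1 (0.933), Ephx1 (0.919) and Twsg1 (0.905) were nearest, and 4 genes were over 0.9. Fgf10 was nearest to Nrn1 (0.982), Myadm (0.976) and Il3ra (0.971), and Fgf7 to Prrx1 (0.959), Glipr2 (0.95) and Layn (0.95), with 197 and 58 genes over 0.9.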

How the data were processed

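Bulk RNA of 12 mouse mammary organoid libraries was measured. Per the labels' protocols, polyadenylated RNA was made into stranded Illumina TruSeq libraries. The submitters' processing notes name TopHat2 2.1, Bowtie 1.1.0, HTSeq and DESeq2 and the builds GRCm38 and mm10, without roles. Whether counting used the strand is not given in the sources used here, so antisense overlaps (Fgf2 with Nudt6, Fgfr3 with G630022F23Rik, Fgf10 with Gm16263, Fgfr1 with Gm16159) could mix reads. The authors deposited a table of raw counts, with Ensembl identifiers and gene symbols, and a second table on the log2 scale; the deposited log2 values equal log2 of counts scaled to 1e7 per library, plus 1 (0 values differed), so the counts were tested.

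Counts were analysed with edgeR 4.0.16 in R 4.3.3 (filterByExpr on 4 groups, trimmed mean of M values, robust glmQLFit, two-sided glmQLFTest) over all 12 libraries with a mean per group. SE is the log2 fold change divided by the square root of F. Exonic bases came from the union of GENCODE M21 exons and promoters from RefSeq (GRCm38.p6). Alternatives were the replicate block, DESeq2 1.42.0, other scaling, no filter, fits of 2 groups, and leaving out each library or culture. Scripts were tested on simulated data.

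Each replicate number is an animal, per the series' design text, so numbers pair the libraries. Deviations from group means correlated at 0.177 to 0.84 (median 0.505) in 18 same-number pairs of libraries. The median of -0.212 in 36 other pairs is no separate evidence, since deviations cancel within a group. Libraries of a group differed beyond sampling noise (chi-square per degree of freedom at least 13.2). The members and gene lists were chosen with earlier results of these data known. Besides all 10 members, the text names up to 4 genes per pathway list with the lowest p at 3 µM and at least 50 counts on average, and the 3 genes most like each member with 50 counts or more. Some genes that this rule names are not reported here. Intervals from counts cover counting error only.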

Additional observations from a re-analysis of the deposited data

How the results depend on the processing

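The alternatives gave 1121 values for single members, of which 1011 kept their direction and their side of the threshold, 22 gained a call, 56 lost one and 32 changed sign; no call in the main analysis changed sign. At 3 µM, 5 to 8 members were called over the 21 alternatives (6 to 7 with 1 library left out), and Fgfbp1, Fgfr3, Fgfr1, Fgf1 and Fgf2 were called in each of them. All genes called ranged there from 4794 to 10559 (7495 to 9294 with 1 library left out). Fgf1 and Fgf2 passed the filter only through groups other than 3 µM, so their calls remain a description. With the replicate block, 7 members were called at 1.5 µM, 8 at 3 µM and 3 between 1 and 1.5 µM; it changed no call of a member other than those printed above. Of all 15316 tested genes, the block called 7147, 10559 and 3351 in these comparisons. Over the fits without 1 library, the count of members called ranged from 2 to 6 at 1.5 µM, from 1 to 2 for the step from 1 to 1.5 µM, from 3 to 4 for the step from 1.5 to 3 µM, and from 1 to 5 for differences among cultures. In the same fits and order, calls over all tested genes ranged from 2565 to 5066, 140 to 1523, 2974 to 5664 and 2620 to 5803. Fitting only the 2 groups called 2 members between 1 and 1.5 µM and lost Fgfr2 at 3 µM (edgeR adjusted p = 0.0924). Without culture 1, 2 members were called at 1.5 µM, 0 for the step from 1 to 1.5 µM and 0 for differences among cultures; without culture 2 these were 1 at 1.5 µM, 0 for the step to 1.5 µM and 2 for the step to 3 µM; without culture 3, 2 were called between 1 and 1.5 µM. Fewer libraries enter these fits. For the step from 1 to 1.5 µM, calls over all tested genes were also 0 without culture 1 or culture 2, and 1128 without culture 3. Differences among cultures were called for 1112 of all tested genes without culture 1.

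Signs changed in uncalled results near 0. With 1 library left out, log2 fold changes at 1 µM ran from -0.75 to 0.06 for Fgf7, from -0.36 to 0.17 for Fgfr2 and from -0.4 to 0.01 for Fgfr3; for Fgf7 they ran from -1.81 to 0.24 at 3 µM, from -1.05 to 0.03 for 1.5 against 1 µM, from -1.06 to 1.16 for 3 against 1.5 µM, and the slope from -0.61 to 0.06. Between 1.5 and 3 µM the ranges were -1.7 to 2.29 for Fgf10, -0.11 to 0.19 for Fgfr2 and -0.64 to 0.17 for Fgfr4. With a culture left out, Fgfr2 at 1 µM was 0.08 (culture 1), Fgfr3 at 1 µM 0.02 (culture 3), Fgf7 0.33 at 3 µM, 0.12 for the step to 1.5 µM and 0.14 per µM (culture 2), Fgf7 -0.4 between 1.5 and 3 µM (culture 3), and Fgfr2 -0.15 and -0.11 there (cultures 1 and 2). Fgfr2 between 1.5 and 3 µM was -0.03 with the replicate block, -0.27 with library size alone and -0.02 without the filter, and Fgf10 was -0.03 with library size alone. The cause was not tested. Library size alone moved the median log2 fold change of all genes to -0.23 at 3 µM and -0.28 between 1.5 and 3 µM, from -0.03 and 0. All genes called numbered 37 at 1 µM (859 with the block, 485 with DESeq2), 4177 at 1.5 µM (7147 with the block, 461 without culture 2) and 8814 at 3 µM (4794 without culture 2). The precision for Fgf1, Fgf2, Fgfr4 and Fgf18 is limited by their counts.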
